A study of Mus musculus with 4 samples.

Results

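The nuclear-encoded genes for the subunits of the mitochondrial respiratory chain were followed in primary mouse hematopoietic stem and progenitor cells (HSPCs) in which Chaf1b, the gene for the p60 subunit of the histone chaperone CAF-1, had been deleted. Members were the protein-coding genes whose mouse symbol starts with Ndufa, Ndufb, Ndufc, Ndufs or Ndufv, is Sdh followed by a, b, c or d, or starts with Uqcr, Cox4i, Cox5, Cox6, Cox7, Cox8 or Atp5. Symbols starting with Ndufaf, which name assembly factors, were left out. This gave 89 members among the 43629 gene identifiers of the count tables, of which 20914 are named protein-coding genes. Complex I held 37 members, complex II 4, complex III 8, complex IV 20 and complex V 20. Ndufa4 and its paralogue Ndufa4l2 were counted with complex IV, since Ndufa4 is a subunit of cytochrome c oxidase in spite of its name. The symbol rule also took in Atp5sl, which is known as a complex I assembly factor, and Atp5l-ps1, which the annotation lists as protein coding.

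The respiratory chain passes electrons from NADH and succinate to oxygen across the inner mitochondrial membrane. Complexes I, III and IV pump protons as the electrons pass, complex II feeds electrons in from the citric acid cycle without pumping, and complex V, the ATP synthase, lets the protons flow back to make ATP. Except for complex II, which is encoded wholly in the nucleus, each complex combines nuclear-encoded subunits with a few that are encoded in mitochondrial DNA. Hematopoietic stem cells are known to rely more on glycolysis than their progeny, and committed myeloid progenitors carry more active mitochondria.

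All 4 libraries came from CD117+ HSPCs of C57Bl/6 mice homozygous for the floxed allele, Chaf1b (fl/fl), so both groups carried it. Cells were grown with SCF, IL6, IL3 and LDL. The 2 MIGR1 control libraries were made from cells given the empty retrovirus, and the 2 Chaf1b-deleted libraries from cells given the same vector with Cre, in each case 48 h after spinfection and after sorting for eGFP. Cre was delivered by retrovirus and was not tied to a cell type. The labels give no age, and nothing in them says whether the replicates came from separate animals, so the p-values measure the spread between these libraries only.

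Libraries held 18468637 to 25409926 counts on genes. Levels are given as raw CPM, the counts of a gene per 1000000 counts on genes of that library. Between genes they are given as raw RPKM, the raw CPM per kb of exons in the annotation. That length joins all annotated exons of a gene, such as 679 bases for Cox4i1 and 4237 for Atp5b. It can exceed the length of the RNA, so ranks by raw RPKM depend on the annotation. Chaf1b stood at 80.3 and 57.9 raw CPM in the MIGR1 controls, against 16.1 and 17.9 with Cre. Its log2 fold change was -2.01 ± 0.25 (SE, edgeR, adjusted p = 0.0330), and the adjusted p was 0.0592 with the replicate block and 0.0651 with at least 10 counts required in every library (edgeR). In the Chaf1b-deleted group, library 1 stood apart, with 7905 counts of Xist against 23 to 33 in the other libraries, 3 counts on 4 Y-linked genes against 5805 to 7771, and Irf7, an interferon-response gene, at 276 raw CPM against 20.4 to 35.8. Among 906 olfactory receptor genes, 40.3% had a count in MIGR1 control 1 and 3.86% to 12.3% in the others. Of the uniquely aligned reads, 35.8% in Chaf1b-deleted 1 and 48.3% in Chaf1b-deleted 2 were assigned to no feature in the counting, with 42.3% and 42.1% in the controls. Xist is made by female cells and Y-linked genes by male cells. By these counts Chaf1b-deleted 1 came from female cells and the other libraries from male cells. Chaf1b-deleted 1 was thus not from the same animal as the others. These differences set single libraries apart from their own group and did not follow the deletion, and their part in the results was not tested. For all members and for each complex, a median that turned without 1 library is given both ways. Medians of smaller sets, of the other gene lists and of members with motif matches were not computed with 1 library left out.

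Among the 89 members, 83 had enough counts to be tested, and none was called higher or lower in the Chaf1b-deleted group at an adjusted p under 0.05 and at least 1.5-fold (edgeR quasi-likelihood test, Benjamini-Hochberg adjustment over 16500 genes). Over all genes tested, 0.37% were called higher and 0.00606% lower. The lowest adjusted p of a member was 0.291. Before adjustment, 0 members were higher and 2 were lower at p under 0.05, which is 2.41% of the members for the lower side, against 9.15% of all genes higher and 3.1% lower. These 2 members were Ndufa4l2 and Atp5g2, both at low levels, described with their families. DESeq2 gave 0 calls in either direction, with 1 member higher at an unadjusted p under 0.05.

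The log2 fold change was under 0 in 57 of the 83 tested members and above 0 in 26. The share under 0 was 68.7%, against 52.5% of all genes. The median was -0.11, against -0.03 over all genes. For 64 members (77.1%, against 43.2% of all genes) the 95% interval of the difference lay within a 2-fold change in either direction. For 5 members it lay within 1.5-fold, as it did for 989 of the 16500 genes tested. The design therefore bounded most members to less than a 2-fold difference, and could not resolve smaller ones. The lean to lower values turned with 1 library: the median of the members was 0.13 without Chaf1b-deleted replicate 2 and -0.37 without Chaf1b-deleted replicate 1. Without Chaf1b-deleted replicate 2 the medians of complexes II, III, IV and V were also above 0, at 0.14, 0.24, 0.27 and 0.19, and without MIGR1 control replicate 1 they were 0.05, 0.19, 0.01 and 0.13. Of the 43 genes whose log2 fold change is printed, 18 changed sign when 1 library was left out.

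**Figure D1:**
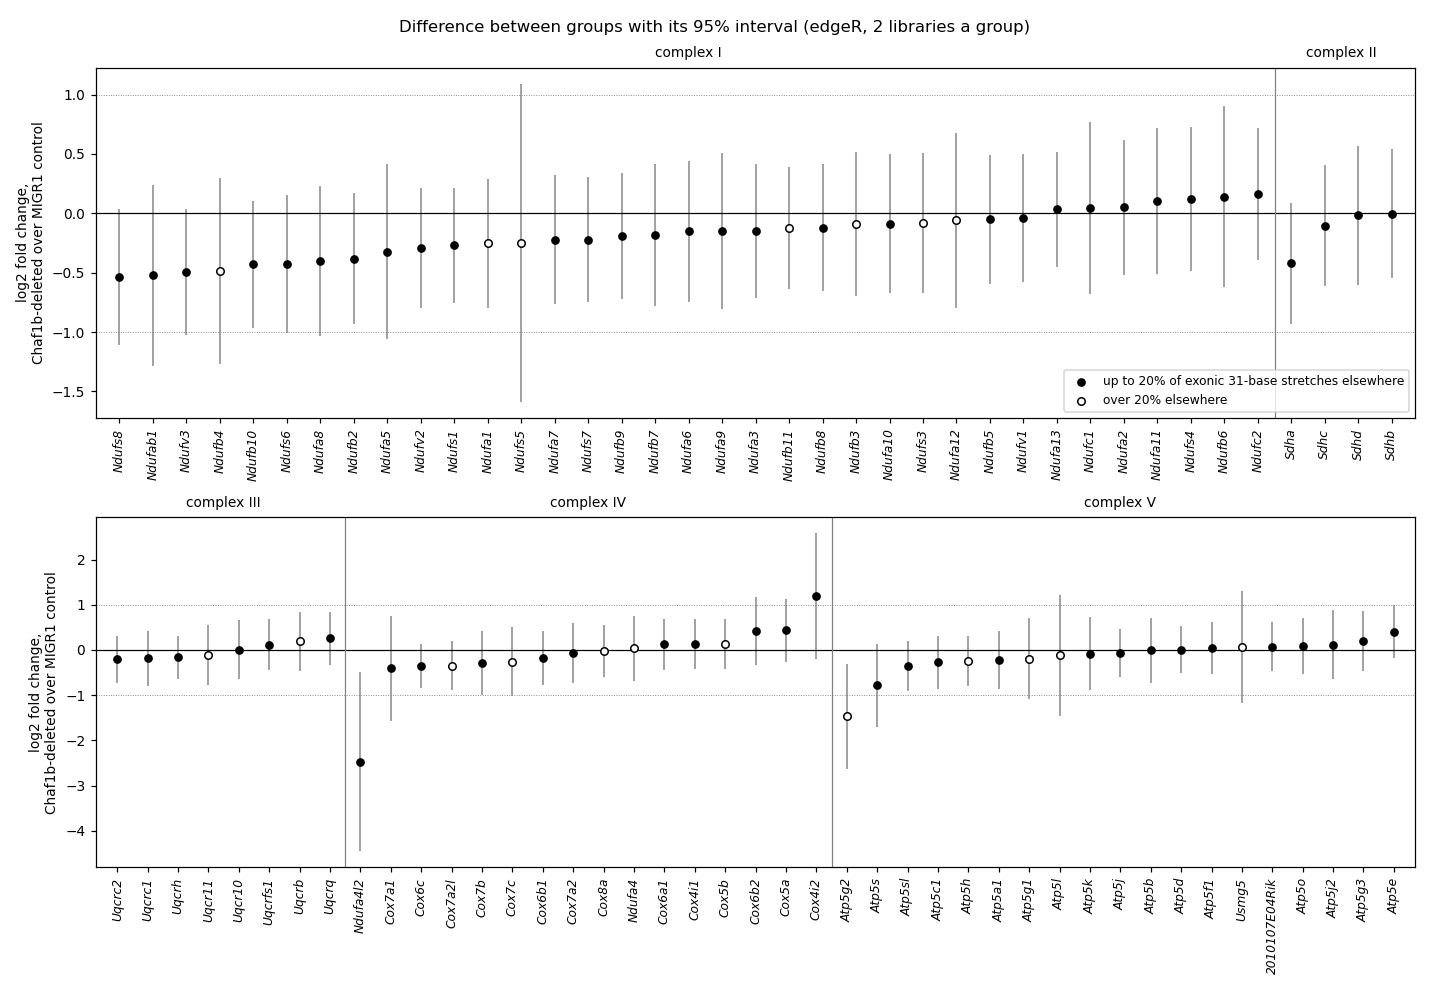
Log2 fold change of the tested members reported here, Chaf1b-deleted over MIGR1 control, with its 95% interval from edgeR, ordered within each complex; open circles mark genes with over 20% of their exonic 31-base stretches elsewhere in the genome, and dotted lines mark 2-fold. Most members lie under 0, and apart from Ndufa4l2 and Atp5g2 each interval shown includes 0.

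The members did differ between libraries of the same group. Summed over all 89 members, raw CPM was 8520 in MIGR1 control 1, 7187 in MIGR1 control 2, 7852 in Chaf1b-deleted 1 and 6351 in Chaf1b-deleted 2. The groups overlapped, since Chaf1b-deleted 1 lay between the controls. The ratio of the group means was 0.904, while the first library exceeded the second 1.19-fold among the controls and 1.24-fold among the Chaf1b-deleted libraries. Of the 83 tested members, 71 were higher in MIGR1 control 1 than in MIGR1 control 2, which held for 52.0% of all genes, and 72 were higher in Chaf1b-deleted 1 than in Chaf1b-deleted 2, which held for 35.0% of all genes. Chaf1b-deleted 2 was the lowest of the 4 libraries for 53 of the 83, or 63.9%, against 16.8% of all genes. Most members thus shared 1 order of libraries within each group.

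**Figure D2:**
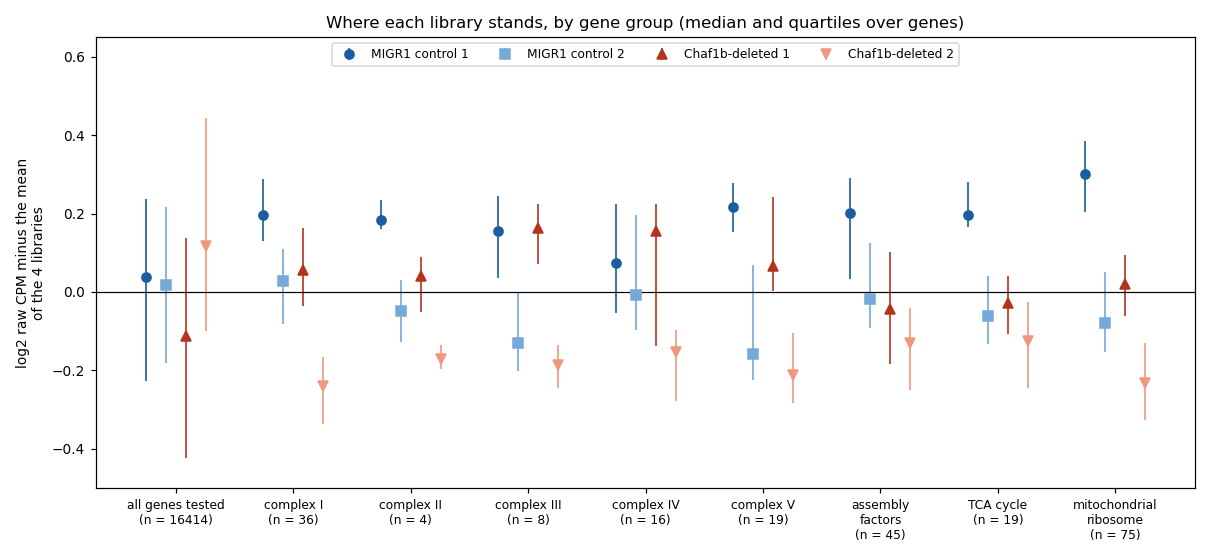
Log2 raw CPM of each library minus the mean of the 4 libraries, as the median (symbol) and quartiles (line) over the genes of each group on the x axis. Over all genes the median of Chaf1b-deleted 2 is 0.12, while over complex I it is -0.24, and MIGR1 control 1 stands at 0.20 in complex I.

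In raw CPM both Chaf1b-deleted libraries lay under both controls for 27 of the 83 members, or 32.5%, and above both for 3, Cox4i2, Cox6b2 and Atp5e. Over all genes the groups did not overlap in the lower direction for 22.9% and in the higher for 21.4%. The lower count depended on the scaling: on CPM scaled with TMM factors, an alternative chosen after seeing the data, it was 16 members, or 19.3%, against 21.4% of all genes, and the higher count was 2. The share of members lower in both libraries was therefore above that of all genes on 1 scale and under it on the other.

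Complex I, the NADH dehydrogenase, had the lowest median of the 5 complexes. Of its 36 tested members, 29 had a log2 fold change under 0, with a median of -0.15 and a range of -0.53 to 0.16, and 0 passed the test in either direction. In raw CPM, 14 of the 36 (38.9%) did not overlap in the lower direction and 0 in the higher, against 22.9% and 21.4% of all genes. On the TMM scale these were 8 and 0, the lower side being 22.2% against 21.4% of all genes. Summed raw CPM of the complex was 2348 and 2098 in the controls and 2087 and 1748 in the Chaf1b-deleted libraries, so the groups lay next to each other with the second control and the first Chaf1b-deleted library nearly equal. Chaf1b-deleted 2 was lowest for 29 of the 36. Without it the median of the complex was 0.11, and without Chaf1b-deleted 1 it was -0.45.

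**Figure D3:**
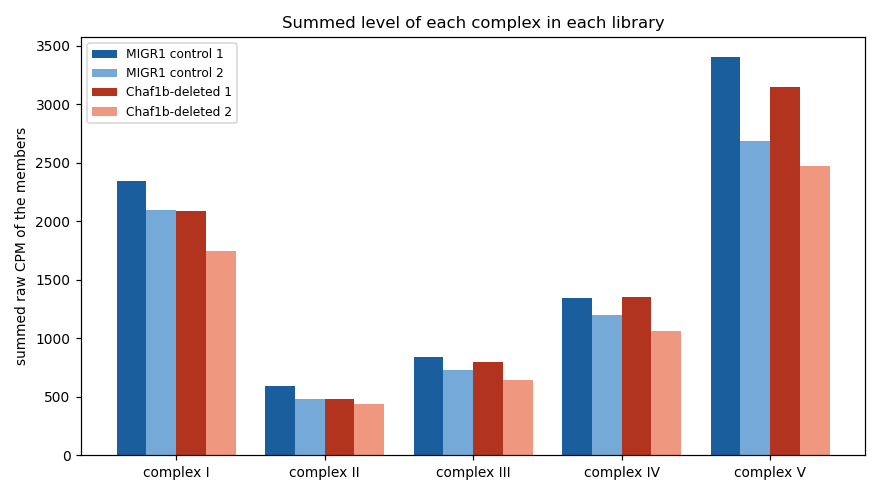
Summed raw CPM of the members of each complex on the y axis in each of the 4 libraries (bars). Within each group the first library is the higher one in all 5 complexes, and complex V is the highest with 2468 to 3403.

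All 7 core subunits of complex I in the list, which include those that carry the flavin and the iron-sulphur clusters, had a log2 fold change under 0, with a median of -0.22 and a range of -0.53 to -0.03. Ndufs8, a subunit with iron-sulphur clusters near the quinone site (chr19:3908870-3912717, minus strand, NCBIM37), had the lowest value in the complex. It stood at 70.4 and 58.2 raw CPM in the controls and at 47.9 and 38.7 in the Chaf1b-deleted libraries, so the groups did not overlap, and its log2 fold change was -0.53 ± 0.25 (SE, edgeR, adjusted p = 0.451). Ndufv1, the subunit that takes electrons from NADH, stood at 94.7 and 78.6 against 88.7 and 76.2, with the groups overlapping. Ndufs1, the largest iron-sulphur subunit, was at 155 and 128 against 112 and 119. Of the core subunits, 4 had groups that did not overlap in raw CPM, Ndufs1, Ndufs7, Ndufs8 and Ndufv2, which is 57.1% against 22.9% of all genes. On the TMM scale there were 3, or 42.9% against 21.4%, as Ndufs7 overlapped.

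Accessory subunits, which surround the core and are needed for its assembly and stability, had 22 of 29 tested members under 0 and a median of -0.15. The most abundant member of the complex by length was Ndufb9, with 102 and 92.3 raw CPM in the controls and 90.5 and 75.5 with Cre, where the log2 fold change was -0.19 ± 0.23 (SE, edgeR, adjusted p = 0.799). The highest log2 fold change in the complex was that of Ndufc2, 0.16 ± 0.24 (SE, edgeR, adjusted p = 0.837), at 54.3 and 48.4 raw CPM against 61.9 and 50.1. Ndufv3 stood at 158 and 184 raw CPM in the controls, against 128 and 109 after deletion, the widest gap in raw CPM among these subunits. Ndufab1, the mitochondrial acyl carrier protein that also serves as a subunit, was at 17.6, 15.7, 7.90 and 15.3 raw CPM, where Chaf1b-deleted 1 alone was low. A second identifier named Ndufb8 had no count in any library, and the first stood at 67.0 to 85.9 raw CPM. Ndufv3 and Ndufab1 were chosen after their values were seen.

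**Figure D4:**
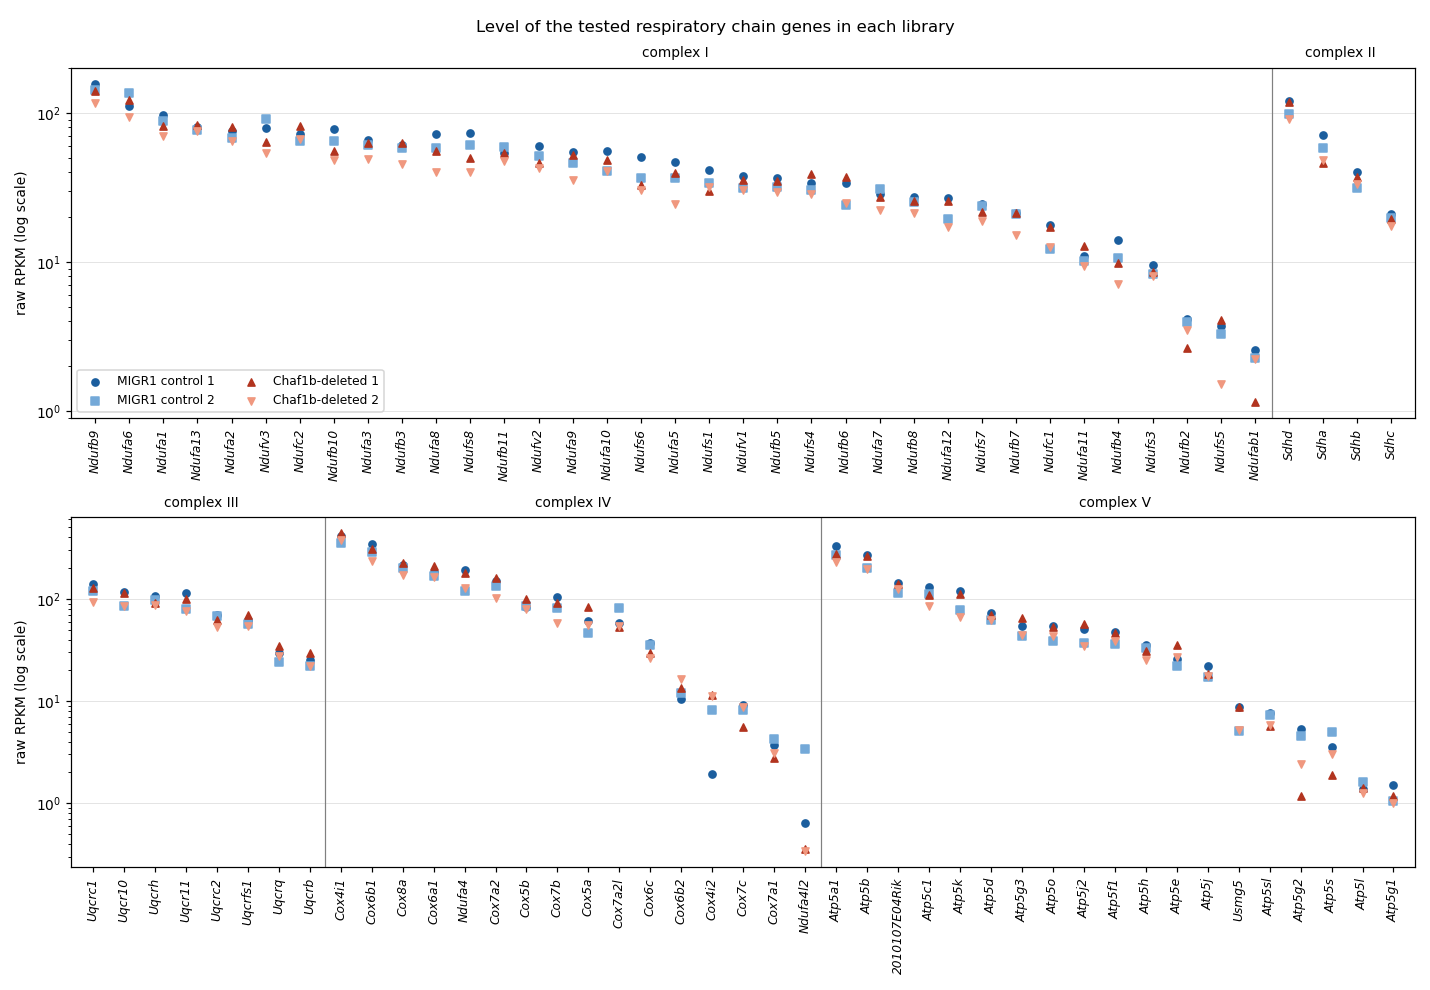
Raw RPKM (log scale) of the tested members reported here in the 4 libraries, ordered by mean level within each complex. Most members reach a mean of 10 or more, and the 4 libraries lie furthest apart for low genes such as Ndufa4l2, Cox4i2 and Atp5g2.

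Complex II, succinate dehydrogenase, is shared with the citric acid cycle. Each of its 4 genes had a log2 fold change under 0, the median was -0.06, and 0 passed the test. Sdha, the flavoprotein that oxidises succinate, stood at 276 and 224 raw CPM in the controls, against 180 and 187 after deletion. Its groups did not overlap, and the log2 fold change was -0.42 ± 0.22 (SE, edgeR, adjusted p = 0.498). Sdhb, the iron-sulphur subunit, was at 89.9 and 70.2 against 82.5 and 73.96, with overlapping groups and a log2 fold change of -0.0015 ± 0.23 (SE). Sdhc, a membrane anchor, was at 68.1 and 63.4 against 63.3 and 56.4 (log2 fold change -0.10 ± 0.22, SE). Sdhd, the other anchor and the most abundant of the 4 by length, was at 154 and 126 against 151 and 117 (log2 fold change -0.02 ± 0.25, SE). For Sdhb the interval of the difference ran from -0.55 to 0.54 on the log2 scale.

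Complex III, the cytochrome bc1 complex, had 4 of its 8 members under 0 and 4 above, with a median of -0.05 and 0 passing the test. Cyc1, the gene for its subunit cytochrome c1, does not match the symbol rule and was counted with the electron carriers. Cyc1 stood at 93.3 and 68.0 raw CPM in the controls, against 88.2 and 78.4 after deletion. Uqcrc1, a core protein and the most abundant by length, stood at 234 and 195 raw CPM in the controls, against 211 and 156 after deletion (log2 fold change -0.19 ± 0.26, SE). Uqcrc2, the other core protein, was at 174 and 169 against 156 and 133, had groups that overlapped on the TMM scale but not in raw CPM, and had the lowest log2 fold change of the complex, -0.21 ± 0.22 (SE, edgeR, adjusted p = 0.775). Uqcrq, a small subunit, had the highest, 0.26 ± 0.25 (SE, edgeR, adjusted p = 0.749), at 54.0 and 44.2 against 63.5 and 50.7. Uqcrfs1, the Rieske iron-sulphur protein that hands electrons to cytochrome c1, was at 84.2 and 76.7 against 95.03 and 74.7. All 8 genes were higher in the first library of each group than in the second.

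Complex IV, cytochrome c oxidase, contains subunits with a ubiquitous form and a form restricted to a tissue such as heart, muscle, lung or testis. In these cells the ubiquitous form was the more abundant one in every such family, in all 4 libraries. Cox4i1, the ubiquitous subunit 4, had the highest level per length of all members, a mean of 396 raw RPKM, at 281 and 239 raw CPM in the controls, against 300.01 and 255 after deletion (log2 fold change 0.13 ± 0.24, SE, edgeR, adjusted p = 0.880). Cox6a1 stood at a mean of 181 raw RPKM, Cox6b1 at 292, Cox7a2 at 136 and Cox8a at 203. Their log2 fold changes lay close to 0, at 0.12 ± 0.24, -0.17 ± 0.26, -0.07 ± 0.29 and -0.02 ± 0.25 (SE) in that order.

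The restricted forms were far lower. Cox6a2 and Cox8b, the heart and muscle forms, had 2 to 22 and 1 to 8 counts and were not tested. Cox8c and Cox7b2, testis forms, had no count in any library. Muscle markers were near 0 in the same libraries, with a summed raw CPM of 0.379 to 1.19 over 6 genes and none tested. Cox7a1, the heart and muscle form of subunit 7A, was at 1.36 and 1.53 raw CPM in the controls, against 1.02 and 1.14 after deletion (log2 fold change -0.40 ± 0.50, SE). Cox6b2, the testis form of subunit 6B, was at 5.76 and 6.65 against 7.39 and 8.99, higher in both Chaf1b-deleted libraries, with a log2 fold change of 0.42 ± 0.32 (SE, edgeR, adjusted p = 0.671). Cox7a2l, the subunit 7A relative that takes part in forming supercomplexes, was at 65.9 and 92.7 against 60.3 and 61.8 (log2 fold change -0.35 ± 0.23, SE), and 68.5% of its exonic stretches of 31 bases occur elsewhere in the genome.

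**Figure D5:**
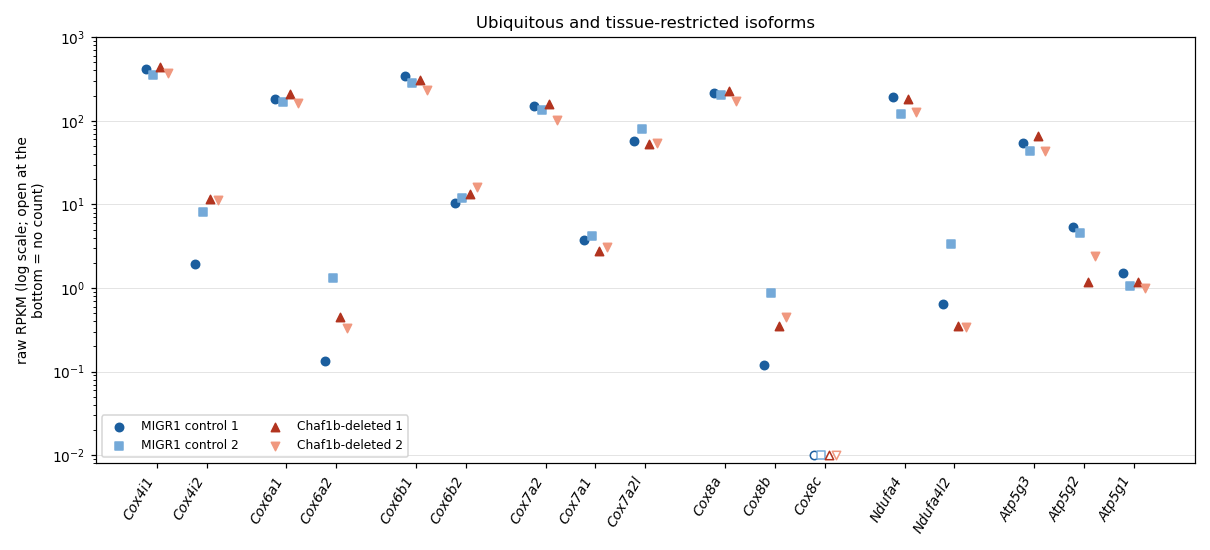
Raw RPKM (log scale) of the isoform families of complexes IV and V in the 4 libraries, the ubiquitous or most abundant form first; open symbols at the bottom mark no count. Cox4i1 has a mean of 396 against 8.22 for Cox4i2, and Atp5g3 a mean of 51.8 against 3.39 for Atp5g2 and 1.19 for Atp5g1.

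Cox4i2, the form of subunit 4 known from lung (chr2:152579909-152590773, plus strand, NCBIM37), had the highest log2 fold change of all members. It had 35 and 164 counts in the controls and 213 and 164 in the Chaf1b-deleted libraries, which is 1.54 and 6.45 raw CPM against 9.05 and 8.88. The 95% Wilson intervals, which cover counting error only, were 1.11 to 2.14 and 5.54 to 7.52 raw CPM in the controls, against 7.91 to 10.3 and 7.62 to 10.3 after deletion. The groups did not overlap, but the controls differed from each other more than the second control differed from either Chaf1b-deleted library. The log2 fold change was 1.20 ± 0.60 (SE, edgeR, adjusted p = 0.488), and without MIGR1 control replicate 2 it was 2.55 with an adjusted p of 0.00945 (edgeR). Without MIGR1 control replicate 1 it was 0.51 with an adjusted p of 0.9997 (edgeR), so the call rested on which control was used.

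Ndufa4, the subunit of cytochrome c oxidase, stood at 93.6 and 59.2 raw CPM against 88.5 and 63.4, with a log2 fold change of 0.03 ± 0.31 (SE). Its paralogue Ndufa4l2, known as a hypoxia-inducible gene (chr10:126951995-126954208, plus strand, NCBIM37, with exons that overlap Shmt2 on the other strand), had 14 and 82 counts in the controls, against 8 and 6 after deletion. In raw CPM this was 0.616 and 3.23 against 0.340 and 0.325, so the high value was that of MIGR1 control 2 alone. The log2 fold change was -2.48 ± 0.85 (SE, edgeR, adjusted p = 0.293). Without MIGR1 control replicate 2 it shrank to -0.86 (edgeR, adjusted p = 0.990), and without MIGR1 control replicate 1 it was -3.22 (edgeR, adjusted p = 0.0265). The adjusted p was 0.00568 without the filter on low counts (edgeR), and over the alternatives computed for single genes it ran from there to 0.990.

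Complex V, the ATP synthase, had 11 of 19 tested genes under 0 and 8 above, with a median of -0.07 and 0 passing the adjusted test. Atp5a1 and Atp5b, the alpha and the catalytic beta subunit of the F1 head, were the most abundant members in raw CPM. Atp5a1 was at 1042 and 849 raw CPM in the controls, against 862 and 713 after deletion (log2 fold change -0.23 ± 0.28, SE, edgeR, adjusted p = 0.803), and Atp5b, chosen after its values were seen, was at 1142 and 856 against 1108 and 824. Atp5b was thus close in the first libraries of each group and close in the second. Atp5e, the epsilon subunit, had the highest log2 fold change of the complex, 0.41 ± 0.26 (SE, edgeR, adjusted p = 0.584), at 45.7 and 38.9 raw CPM against 61.7 and 47.3. Its groups did not overlap in raw CPM but overlapped on the TMM scale. The 4 genes of the peripheral stalk had a median of -0.01.

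The c-ring, the rotor of the ATP synthase, is built from copies of subunit c, which Atp5g1, Atp5g2 and Atp5g3 encode with different import sequences and the same mature protein. Atp5g3 carried most of the counts, at 118 and 95.2 raw CPM in the controls, against 142 and 96.2 after deletion (log2 fold change 0.21 ± 0.29, SE, edgeR, adjusted p = 0.826). Atp5g1 was at 7.43 and 5.16 against 5.82 and 4.93 (log2 fold change -0.19 ± 0.39, SE). Atp5g2 had 79 and 75 counts in the controls, against 18 and 29 after deletion, which is 3.47 and 2.95 raw CPM against 0.765 and 1.57. Its groups did not overlap, nor did their 95% Wilson intervals, which ran down to 2.35 in the controls and up to 2.26 after deletion. The log2 fold change of Atp5g2 was -1.47 ± 0.50 (SE, edgeR, adjusted p = 0.291). Of its exonic stretches of 31 bases, 100% also occur elsewhere in the genome, and reads with more than 1 alignment were not counted, so its level is uncertain. For Atp5g1 this share was 30.5% and for Atp5g3 0.194%.

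Shared sequence touched other low members too. Of the 14 tested members with a mean under 10 raw RPKM, 7 had over 20% of their exonic 31-base stretches elsewhere, against 12 of the 69 at 10 or more. Atp5l, subunit g of the membrane part, had 88.4% of its stretches elsewhere and stood at 0.650 to 0.826 raw CPM, and Usmg5, a small protein of the same part, had 86.9% and stood at 1.73 to 2.99. Among the 64 tested members with at most 20%, the median log2 fold change was -0.10 and 42 were under 0, and among the 19 above 20% these were -0.12 and 15. In the annotation, Atp5j overlaps Gabpa head to head and Atp5o shares exonic bases with Donson, and counts of such genes can be split or set aside as ambiguous.

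The 13 genes of mitochondrial DNA that encode subunits of the chain were each listed at 0 in all 4 libraries, so the balance of the 2 genomes could not be examined. Other mitochondrial gene lists were set beside the members. Of 75 tested genes for mitochondrial ribosomal proteins, which make the subunits of mitochondrial DNA, 62 were under 0 with a median log2 fold change of -0.19, 0 were called and 7 were lower at an unadjusted p under 0.05, which is 9.33% against 3.1% of all genes. Chaf1b-deleted 2 was lowest for 52 of them, and 72 were higher in the first control than in the second. The lowest was Mrpl23 (log2 fold change -1.89 ± 0.78, SE) at 0.0850 to 0.984 raw CPM, and the highest Mrps34 (0.49 ± 0.48, SE). Of 19 citric acid cycle genes, 14 were under 0 with a median of -0.19 and 0 were called, from Idh3g, a subunit of isocitrate dehydrogenase (-0.38 ± 0.23, SE), to Pcx, pyruvate carboxylase (0.59 ± 0.35, SE).

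Among 45 tested assembly factors, which help to build the complexes without being part of them, 34 were under 0 with a median of -0.12 and 0 were called. They ranged from 2310003L22Rik, now Ndufaf5 (log2 fold change -0.74 ± 0.37, SE), to Cox18, an insertase for a subunit of complex IV (0.44 ± 0.28, SE). A list of 19 genes held those for the electron carriers coenzyme Q and cytochrome c and their enzymes, and also Cyc1 of complex III. Of these, 11 were under 0 with a median of -0.04 and 0 were called. They ranged from Coq3 (-0.57 ± 0.28, SE) to Coq4 (0.43 ± 0.32, SE), both genes of coenzyme Q synthesis.

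Nuclear genes of the chain are known to be driven by NRF1, by the ETS factor GABP and by YY1, with coactivators of the PGC-1 family. A list of regulators held such genes and also Tfam, Tfb1m, Tfb2m and Polrmt, which act on mitochondrial DNA. Its counts are thus not those of regulators of nuclear genes alone. Of its 14 tested genes, 10 were under 0 with a median log2 fold change of -0.18 and 0 were called. Nrf1 stood at 75.6 and 68.8 raw CPM in the controls, against 59.9 and 53.0 after deletion (log2 fold change -0.32 ± 0.22, SE, edgeR, adjusted p = 0.619). Gabpa, the DNA-binding subunit of GABP, was at 145 and 142 against 117 and 111 (-0.31 ± 0.21, SE), and its partner Gabpb1 at 59.9 and 69.3 against 49.8 and 58.5 (-0.24 ± 0.20, SE). Yy1 lay higher, at 101 and 97.4 against 131 and 118 (0.36 ± 0.21, SE, edgeR, adjusted p = 0.552). In raw CPM, 6 of the 14 did not overlap in the lower direction and 2, Yy1 and Esrra, in the higher, which is 42.9% and 14.3% against 22.9% and 21.4% of all genes. On the TMM scale these were 7 and 1, as Pprc1 joined the lower genes and Esrra overlapped.

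Esrra, an orphan nuclear receptor that acts with PGC-1 coactivators, had a log2 fold change of 0.24 ± 0.23 (SE). The lowest of the list was Polrmt, the mitochondrial RNA polymerase, at 30.3 and 25.03 raw CPM against 18.0 and 19.4 (log2 fold change -0.54 ± 0.24, SE, edgeR, adjusted p = 0.416). Myc was at 186 and 239 against 148 and 160 (-0.44 ± 0.21, SE). Pprc1, a PGC-1-related coactivator, was at 64.6 and 55.4 against 29.6 and 55.7 (-0.50 ± 0.28, SE), so only Chaf1b-deleted 1 was low. Ppargc1a had 4 to 7 counts a library and was not tested. The remaining regulators were Sp1 at 205 to 291 raw CPM, Gabpb2 at 150 to 190, Tfam, which packages mitochondrial DNA, at 43.0 to 54.1, Tfb1m at 10.2 to 13.1, Tfb2m at 5.12 to 7.08 and Ppargc1b at 5.86 to 7.56.

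Promoter windows of 300 bases, 250 before and 50 after the start of the gene, were found in RefSeq (GRCm38.p6) for 69 of the 88 member symbols. Some genes had more than 1 window, and a gene counted as a match if any of its windows held the letters. The letters GCGCANGCG of the NRF1 site, searched on both strands, occurred in 20 of these 69 genes (29.0%) against 9.63% of 17492 protein-coding genes. CCGGAAG, an ETS site, occurred in 17 (24.6%) against 12.95%, and ATGGCGG, a YY1 site, in 10 (14.5%) against 6.05%. At least 1 of the 3 occurred in 38 (55.1%) against 24.2%. Matches to different motifs may overlap. Of the 20 tested members with the NRF1 letters, 16 had a log2 fold change under 0, with a median of -0.21, and of the 47 without them 31 did, with a median of -0.07. For the ETS letters the order was the opposite, with a median of -0.08 over 17 members with a match and -0.14 over 50 without, and for the YY1 letters the medians were -0.19 over 10 and -0.09 over 57. With and without any of the 3, the medians were -0.15 over 38 and -0.07 over 29 members. These counts describe the windows and the values, and whether a factor was bound there was not measured.

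The windows of the 3 subunit c genes and of Ndufs8, Sdhd and Atp5e are shown to let the named members be compared, 5′ to 3′ on the strand of the gene, with matches to the 3 motifs in capitals. All 6 genes are on the minus strand, at chr11:96075582-96075881 for Atp5g1, chr15:102670998-102671297 for Atp5g2, chr2:73911277-73911576 for Atp5g3, chr19:3912725-3913024 for Ndufs8, chr9:50603800-50604099 for Sdhd and chr2:174464052-174464351 for Atp5e, all in GRCm38.p6.
Atp5g1: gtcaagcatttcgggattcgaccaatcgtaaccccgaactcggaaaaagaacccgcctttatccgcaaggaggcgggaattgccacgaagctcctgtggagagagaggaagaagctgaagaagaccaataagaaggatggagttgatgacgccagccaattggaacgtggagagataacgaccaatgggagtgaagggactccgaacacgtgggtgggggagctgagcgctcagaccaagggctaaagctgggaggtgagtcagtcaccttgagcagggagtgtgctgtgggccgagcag
Atp5g2: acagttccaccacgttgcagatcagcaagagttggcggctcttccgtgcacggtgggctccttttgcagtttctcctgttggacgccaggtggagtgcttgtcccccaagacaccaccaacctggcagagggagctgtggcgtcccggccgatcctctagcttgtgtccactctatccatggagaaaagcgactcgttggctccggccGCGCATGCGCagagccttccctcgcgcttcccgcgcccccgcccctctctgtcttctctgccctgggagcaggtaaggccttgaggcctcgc
Atp5g3: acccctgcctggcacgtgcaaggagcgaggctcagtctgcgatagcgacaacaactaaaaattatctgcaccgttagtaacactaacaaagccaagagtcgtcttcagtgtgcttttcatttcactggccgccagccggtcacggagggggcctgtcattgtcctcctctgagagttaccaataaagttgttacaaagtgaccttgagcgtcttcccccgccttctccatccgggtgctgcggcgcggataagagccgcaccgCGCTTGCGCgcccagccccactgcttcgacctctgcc
Ndufs8: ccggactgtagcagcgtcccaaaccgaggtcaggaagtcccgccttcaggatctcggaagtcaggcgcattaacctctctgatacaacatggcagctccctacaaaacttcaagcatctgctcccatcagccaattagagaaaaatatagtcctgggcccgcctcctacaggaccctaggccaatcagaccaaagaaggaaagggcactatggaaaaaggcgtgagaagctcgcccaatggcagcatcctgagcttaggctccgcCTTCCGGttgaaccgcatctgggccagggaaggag
Sdhd: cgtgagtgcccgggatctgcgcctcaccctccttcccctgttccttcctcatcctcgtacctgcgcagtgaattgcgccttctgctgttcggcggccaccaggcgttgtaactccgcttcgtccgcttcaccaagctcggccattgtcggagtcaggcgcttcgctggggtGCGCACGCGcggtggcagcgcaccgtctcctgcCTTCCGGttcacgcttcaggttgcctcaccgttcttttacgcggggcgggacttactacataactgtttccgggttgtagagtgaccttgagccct
Atp5e: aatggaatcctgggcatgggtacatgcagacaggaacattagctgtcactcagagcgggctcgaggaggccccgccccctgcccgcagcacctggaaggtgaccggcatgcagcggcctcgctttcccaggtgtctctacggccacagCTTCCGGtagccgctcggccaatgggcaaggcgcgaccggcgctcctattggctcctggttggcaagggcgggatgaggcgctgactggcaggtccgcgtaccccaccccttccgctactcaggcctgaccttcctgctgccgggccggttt
Atp5g1 has no match in its window, Atp5g2 has the NRF1 letters on both strands in 1 palindromic stretch, and Atp5g3 has them after the start. Ndufs8 and Atp5e each have 1 ETS match, which lies after the start in Ndufs8 and before it in Atp5e. Sdhd has an NRF1 and an ETS match, both before the start. Matches thus occurred in Ndufs8 and Atp5g2, each with the lowest log2 fold change of its complex. They also occurred in Sdhd, near 0, and in Atp5e, with the highest of complex V. Whether matches go with the differences was not tested.

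The cells carried HSPC markers in all 4 libraries, with a summed raw CPM over 10 genes of 1971 and 2208 in the controls, against 1977 and 2254 after deletion. Of these 10, 1 was called higher, Flt3, a cytokine receptor of early progenitors, at 4.66 and 5.31 raw CPM against 19.3 and 22.7 (edgeR, adjusted p = 0.0383). Among the 10, 7 had a log2 fold change above 0 and 3 under 0, the lowest being that of Myb. At an unadjusted p under 0.05 (edgeR), 2 were higher and 1 lower. Neutrophil markers were abundant throughout, with sums over 8 genes of 47365 and 55175 against 69394 and 52345, and 0 of 8 were called. Myeloid progenitor markers, 6 genes with 0 called, summed to 7396 and 7310 in the controls, 6896 in Chaf1b-deleted 1 and 4425 in Chaf1b-deleted 2, the library in which most respiratory chain genes were lowest. Megakaryocyte markers, with 0 of 6 called, summed to 101 and 99.96 against 153 and 267. Dendritic cell markers, with 0 of 3 tested called, summed to 7.96 and 10.9 against 58.8 and 36.2. Flt3 is also a dendritic cell marker but was counted with the HSPC markers only. At an unadjusted p under 0.05 (edgeR), 3 of 3 dendritic cell, 4 of 6 megakaryocyte and 3 of 8 neutrophil markers were higher and 0 lower. Of the 6 myeloid progenitor markers, 0 were higher and 1 lower. Over all genes tested, 9.15% were higher and 3.1% lower. Sums of the other lists were 106 to 349 for macrophages, 468 to 766 for mast cells and basophils and 39.1 to 67.3 for the erythroid lineage. For B cells they were 17.5 to 33.2 and for T cells 5.47 to 13.3, and 0 were called in each of these other lists. In each of them 1 gene was higher at an unadjusted p under 0.05 (edgeR), and for mast cells and basophils 1 was also lower. The part of these markers in the levels of the respiratory chain genes was not tested, and in bulk RNA a change in the share of a cell type and a change in RNA per cell cannot be told apart.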

How the data were processed

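RNA-seq libraries of ribosome-depleted total RNA were prepared from sorted HSPCs with a stranded kit. Per the labels and the study's methods, the authors aligned reads with STAR to mm9 and counted them per gene with HTSeq, and deposited the raw counts, 1 table per library, with replicates not pooled. Neither the annotation release nor the strand setting is given in the sources used here. Of the 43629 identifiers, 33068 were named from the NCBIM37 (mm9) annotation, 87 members matched by symbol and 2, 2010107E04Rik and Usmg5, through RefSeq synonyms. Rows that do not name a gene were left out: no feature took 35.8% to 48.3% and ambiguous reads 2.05% to 2.76% of the uniquely aligned reads. Reads with several alignments were not counted.

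Counts were tested with edgeR 4.0.16 (filterByExpr with a minimum count of 10, TMM factors, quasi-likelihood test, groups only) on R 4.3.3, with Benjamini-Hochberg adjustment over 16500 genes, 1.5-fold and an adjusted p of 0.05, and were checked on simulated counts. The coefficient of variation between libraries was 0.276, above counting error, for which the 95% Wilson bounds lay 1.21% to 17.9% to either side of values from 100 or more counts. A count of 3, the floor, corresponds to 0.118 to 0.162 raw CPM. Alternatives were DESeq2 1.42.0, other edgeR tests, scalings, filters and thresholds, annotation symbols alone, the replicate block and each library left out. Named genes were, per complex, the highest by raw RPKM and both extremes of log2 fold change, the isoform families and the Sdh genes. Regulators, called genes, the lowest HSPC marker and the extremes of each mitochondrial list were also named. Those named for other reasons are marked or have only their levels given. The members and lists were chosen with earlier results of these data known. A member enters the counts but is not reported here by itself.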

Additional observations from a re-analysis of the deposited data

How the results depend on the processing

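Depth was not the limit for most members, whose counting error was small beside the spread between 2 libraries a group, and a difference smaller than 2-fold could not be resolved for most. The count of members called higher or lower was 0 under each other test, scaling, filter, threshold and symbol choice except 1 lower (Ndufa4l2) without the low-count filter, and ranged from 0 to 1 in each direction with 1 library left out. Members lower at an unadjusted p under 0.05 numbered 5 with library size alone, 4 with upper-quartile factors, 1 with at least 10 counts in every library and 4 with the replicate block, against 2, and 1 to 15 with 1 library left out. Members higher numbered 1 with DESeq2 and 1 without the filter, against 0, and 0 to 3 with 1 library left out. Members not overlapping in the lower direction numbered 16 on TMM-scaled CPM, an alternative chosen after seeing the data, against 27. Why these counts moved was not tested. Where 1 library was left out, the lone library of its group was assumed to vary like the other group. The median log2 fold change of all members then ranged from -0.37 to 0.13, complex I from -0.45 to 0.11, complex II from -0.32 to 0.14, complex III from -0.32 to 0.24, complex IV from -0.36 to 0.27 and complex V from -0.42 to 0.19. Single genes whose direction turned ranged from -0.45 to 0.0379 for Ndufb9, -0.12 to 0.41 for Ndufc2, -0.20 to 0.19 for Sdhb, -0.30 to 0.0863 for Sdhc, -0.34 to 0.26 for Sdhd, -0.54 to 0.11 for Uqcrc1, -0.44 to 0.00847 for Uqcrc2, -0.0345 to 0.51 for Uqcrq, -0.11 to 0.35 for Cox4i1, -0.19 to 0.40 for Cox6a1, -0.51 to 0.11 for Cox6b1, -0.55 to 0.30 for Cox7a2, -0.36 to 0.27 for Cox8a, -0.35 to 0.41 for Ndufa4, -0.49 to 0.00839 for Atp5a1, -0.45 to 0.10 for Atp5g1, -0.23 to 0.56 for Atp5g3 and -0.0344 to 0.87 for Mrps34. With all libraries, Sdhb, at -0.0015, turned to 0.0041 with DESeq2 and 0.0041 with its size factors in edgeR, 0.018 with upper-quartile factors and 0.036 without the filter, Sdhd to 0.022 and Cox8a to 0.0197 without the filter, and Ndufa4 to -0.0087 with library size alone. Of 299 such values for 43 genes, 292 kept their direction. Over all genes tested, the deviations of same-numbered libraries had a correlation of 0.0133. This does not settle pairing for the members. Of the 83 tested, 71 were higher in MIGR1 control 1 than in control 2, and 72 in Chaf1b-deleted 1 than in Chaf1b-deleted 2. With the replicate block the median over all members was -0.13 and 0 members were called. Chaf1b then had an adjusted p of 0.0592 (edgeR), against 0.0651 with at least 10 counts in every library and 0.0330 in the test reported.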
